A study of Homo sapiens with 9 samples.

Results

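The genes described here are 30 genes of cholesterol and fatty acid synthesis that are known as targets or regulators of the sterol regulatory element-binding proteins (SREBPs). They were taken by symbol, by a rule that uses no measured value, though with earlier results of these data known. All 30 were found among the 22295 entries of the deposited expression table. They comprise 18 sterol enzymes, 8 fatty acid genes, and 4 genes of regulation and sterol transport. The samples were 9 RNA-seq libraries of U251, an established human glioblastoma cell line, with 3 libraries in each of 3 groups. The sh-Luci-3d cells were taken 3 days after infection with a lentivirus carrying a control sh-RNA against luciferase, and the sh-Ptbp1-3d and sh-Ptbp1-7d cells 3 and 7 days after infection with a lentivirus carrying an sh-RNA against PTBP1, a splicing repressor. By the study's methods, infected cells for reprogramming were moved from serum medium to a neuronal induction medium at 2 days after infection. This medium held N2, B27, forskolin and dorsomorphin. The medium of the sequenced cells is not stated apart. If they followed the same scheme, the 7-day cells had spent longer in the induction medium. No sh-Luci library of 7 days was analysed here, and in the sh-Ptbp1-7d cells the effects of knockdown, time and medium cannot be told apart. All groups came from this 1 line, and nothing in the labels says that the 3 libraries of a group were separate cultures, so p-values measure the spread between these libraries.

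SREBPs are transcription factors that are made as membrane proteins of the endoplasmic reticulum. When sterols are scarce, SCAP escorts them to the Golgi, where proteases release the part that enters the nucleus and raises transcription of the lipid synthesis genes, whereas INSIG proteins hold SCAP in the endoplasmic reticulum when sterols are plentiful. SREBP-2, from SREBF2, acts mainly on the sterol arm, which builds cholesterol from acetyl-CoA through mevalonate and squalene, and SREBP-1, from SREBF1, acts mainly on the fatty acid arm, which builds and desaturates fatty acids from citrate and acetate. Glioma cells are known for high lipid demand, and neurons and glia of the brain make their own cholesterol.

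FPKM (fragments per kilobase of transcript and mapped fragments of the library) summed to between 367412 and 404922 per library. The low values show no whole-read steps, which leaves the depth unknown, and no counting interval is given. PTBP1, on chromosome 19 from 797075 to 812327 (GRCh38), was at 111, 112 and 124 FPKM in sh-Luci-3d, at 66.2, 64.4 and 61.0 FPKM in sh-Ptbp1-3d, and at 49.7, 50.7 and 51.0 FPKM in sh-Ptbp1-7d, with no overlap between the groups. Glioma line markers were led in the control by VIM at 4168 ± 69.7 FPKM (SD, n = 3), whereas GFAP and S100B stayed at or below 1.15 FPKM in every library. The immune markers CD3E and AIF1 and the oligodendrocyte markers MOG and MAG were listed at 0 in all 9 libraries, whereas CNP, a myelin enzyme from the same oligodendrocyte list, was at 36.9, 42.7 and 52.9 FPKM in sh-Luci-3d, at 47.2, 45.9 and 48.3 FPKM in sh-Ptbp1-3d, and at 80.0, 78.5 and 70.3 FPKM in sh-Ptbp1-7d. It held nearly all of the summed level of the 6 listed oligodendrocyte markers, 46.0 to 48.3 FPKM at 3 days and 70.3 to 80.2 FPKM at 7 days of knockdown, and was higher at 7 days (log2 fold change 0.69, standard error 0.12, limma adjusted p = 6.17e-04). The sh-Ptbp1-3d replicate 3 library stood apart by the neuronal gene STMN2, at 11.5 FPKM there and listed at 0 in the other 8 libraries. The sh-Luci-3d replicate 3 library was the one farthest from the median of its group for 60.0% of 15480 entries and for 22 of the 30 lipid genes, and results that rest on these libraries are given with and without them.

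In the sh-Luci-3d cells the fatty acid arm held the most abundant transcripts of the set. SCD, the desaturase that makes oleate from stearate, was at 1662, 1713 and 1397 FPKM, and FASN, the fatty acid synthase, at 618, 649 and 732 FPKM. These were followed by FDFT1 at 340.1 ± 11.1 FPKM, SREBF1 at 340.0 ± 44.2 FPKM and FDPS at 322 ± 36.9 FPKM (SD, n = 3 each), whose ranges overlapped, so no order among the 3 is given. At the low end stood SC5D, a sterol desaturase, at 6.25 ± 1.62 FPKM, below MVK at 13.2 ± 1.45 FPKM and HSD17B7 at 15.1 ± 1.53 FPKM, which overlapped each other. SREBF1 was higher than SREBF2 in every library of each group. The 30 genes together summed to between 4557 and 4971 FPKM in the 6 libraries of 3 days, which was 1.15% to 1.23% of all FPKM in a library, and to between 1608 and 1734 FPKM, or 0.424% to 0.472%, in the 3 libraries of 7 days. FPKM is per length, so these levels can be set beside each other between genes.

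**Figure D1:**
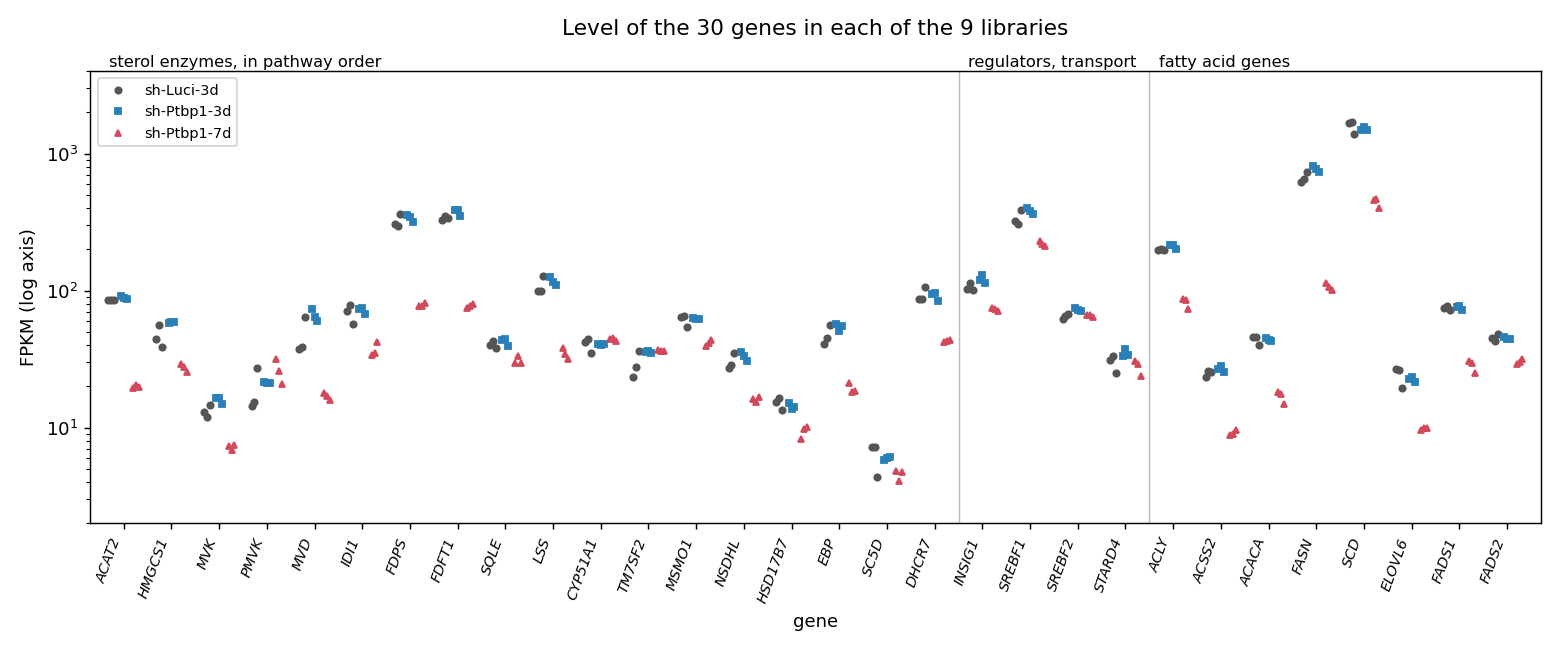
FPKM (log axis) of the 30 genes in each of the 9 libraries, with 1 point per library. Grey circles are sh-Luci-3d, blue squares sh-Ptbp1-3d and red triangles sh-Ptbp1-7d. The sh-Ptbp1-7d points lie below those of sh-Ptbp1-3d without overlap for 27 of the 30 genes.

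Between 3 and 7 days of PTBP1 knockdown the synthesis genes fell in both arms, and none rose. With limma on log2(FPKM + 0.1), 24 of the 30 genes were lower in sh-Ptbp1-7d than in sh-Ptbp1-3d at an FDR (Benjamini-Hochberg adjusted p) below 0.01, a call made in the lower direction for 15.5% of the 15551 entries tested. Of the 24, 17 were also more than 2-fold lower, against 5.9% of all entries tested. The sh-Ptbp1-7d and sh-Ptbp1-3d libraries did not overlap for 28 genes, 27 of them lower, where 62.3% of all entries did not overlap and 27% were lower without overlap. The median log2 fold change was -1.10 over the 30 genes and 0.09 over all entries tested. All 30 genes were above the low-value filter, a mean of 0.1 FPKM over all libraries, so no gene was left out of these counts. Also under same-total, median-ratio and quantile scaling 24 genes were lower at this FDR and none higher, and quantile normalization moved the median of all entries from 0.09 to -0.01. Over all entries the split of calls past both thresholds was 1293 higher and 918 lower, but 1534 and 789 with libraries scaled to the same total, and 1039 and 1081 with quantile normalization.

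The fall was deeper in the fatty acid genes and in the early sterol enzymes than in the late sterol enzymes, by their medians. The medians of log2 fold change were -1.39 for the 8 fatty acid genes, -1.07 for all 18 sterol enzymes, and -0.52 for the 4 regulators and transport genes. The split of the sterol enzymes at squalene was not among the planned results. Its medians were -1.55 for the 8 enzymes up to squalene synthesis and -0.60 for the 10 after squalene. Their ranges overlapped, from -2.29 to 0.26 and from -1.75 to 0.12. Relative to the mean of the sh-Luci-3d libraries, the per-library medians of the fatty acid genes were -1.29, -1.31 and -1.5 in sh-Ptbp1-7d and between -0.03 and 0.05 in the 6 libraries of 3 days. Those of the early sterol enzymes were -1.18, -1.19 and -1.18 in sh-Ptbp1-7d, and those of the late sterol enzymes -0.73, -0.59 and -0.53. No test of the difference between the arms was made.

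**Figure D2:**
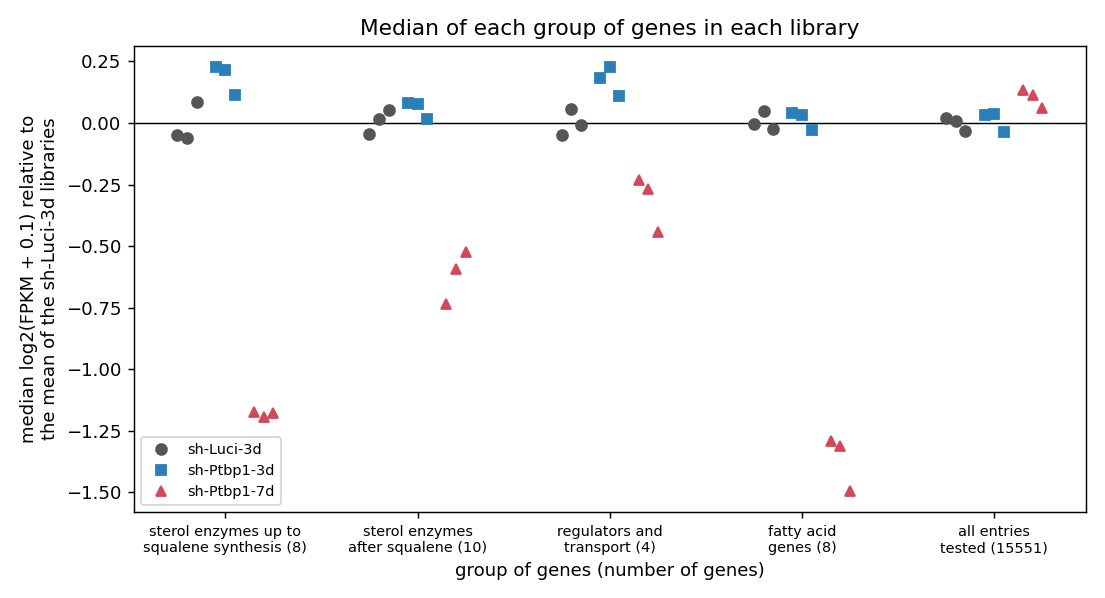
Median log2(FPKM + 0.1) of each group of genes in each library, relative to the mean of the sh-Luci-3d libraries, with 1 point per library and the number of genes in brackets. The sh-Ptbp1-7d points of the fatty acid genes lie at -1.29 to -1.5, while the medians of all entries tested lie between -0.04 and 0.14.

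Of the 8 sterol enzymes up to squalene synthesis, 7 fell at 7 days and PMVK did not pass. FDFT1, which encodes squalene synthase and so commits the pathway to sterols, was at 328, 350.3 and 342 FPKM in sh-Luci-3d, at 389, 389 and 351 FPKM in sh-Ptbp1-3d, and at 74.2, 77.1 and 79.9 FPKM in sh-Ptbp1-7d. All 3 libraries of 7 days lay far below the 6 libraries of 3 days, which were close to each other. The level in sh-Ptbp1-7d was 20.5% of that in sh-Ptbp1-3d, 4.88-fold lower (log2 fold change -2.29, standard error 0.07, limma adjusted p = 6.69e-09). ACAT2, the cytosolic thiolase that joins acetyl-CoA units at the entry of the pathway, was at 85.8, 86.0 and 86.1 FPKM in sh-Luci-3d, at 91.9, 89.0 and 86.4 FPKM in sh-Ptbp1-3d, and at 19.5, 20.4 and 19.8 FPKM in sh-Ptbp1-7d. It was steady across the libraries of 3 days and fell 4.48-fold at 7 days (log2 fold change -2.16, standard error 0.06, limma adjusted p = 3.32e-09). FDPS, which makes farnesyl diphosphate for both sterols and prenylation, was at 307, 294 and 363 FPKM in sh-Luci-3d, at 356, 348 and 315 FPKM in sh-Ptbp1-3d, and at 77.7, 77.4 and 81.5 FPKM in sh-Ptbp1-7d. Again the groups of 3 and 7 days did not overlap, and the fall was 4.30-fold (log2 fold change -2.10, standard error 0.09, limma adjusted p = 4.46e-08). MVD, the decarboxylase that makes isopentenyl diphosphate, was at 37.8, 38.9 and 64.3 FPKM in sh-Luci-3d, at 73.2, 64.2 and 60.6 FPKM in sh-Ptbp1-3d, and at 17.8, 16.9 and 15.8 FPKM in sh-Ptbp1-7d. It was lowest in the 3 libraries of 7 days, but its libraries of 3 days varied among themselves, sh-Luci-3d replicate 3 lying among those of sh-Ptbp1-3d. Its fall from sh-Ptbp1-3d was 3.92-fold (log2 fold change -1.96, standard error 0.17, limma adjusted p = 6.45e-06).

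HMGCS1, the synthase of HMG-CoA, was at 44.4, 55.8 and 39.0 FPKM in sh-Luci-3d, at 57.9, 58.9 and 59.2 FPKM in sh-Ptbp1-3d, and at 29, 27.6 and 25.7 FPKM in sh-Ptbp1-7d. The 7-day libraries were the lowest, and the sh-Ptbp1-3d libraries all exceeded those of sh-Luci-3d. The fall from 3 to 7 days was 2.14-fold (log2 fold change -1.10, standard error 0.12, limma adjusted p = 2.20e-05). MVK, mevalonate kinase, fell 2.22-fold to 7.22 ± 0.307 FPKM (SD, n = 3), and IDI1, the isopentenyl diphosphate isomerase, 1.95-fold to 37.1 ± 4.6 FPKM, short of 2-fold. PMVK, phosphomevalonate kinase, which acts between MVK and MVD, was the exception, at 14.3, 15.4 and 27.0 FPKM in sh-Luci-3d, at 21.7, 21.3 and 21.3 FPKM in sh-Ptbp1-3d, and at 31.7, 25.9 and 20.7 FPKM in sh-Ptbp1-7d. Its 7-day libraries spread from below the sh-Ptbp1-3d libraries to above every other library, and the difference from sh-Ptbp1-3d did not pass (log2 fold change 0.26, standard error 0.22, limma adjusted p = 0.346, 95% interval -0.22 to 0.74).

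After squalene, 7 of 10 enzymes fell and 3 did not pass. LSS, which closes squalene epoxide into lanosterol, was at 99.9, 100.2 and 127 FPKM in sh-Luci-3d, at 127, 116 and 110.0 FPKM in sh-Ptbp1-3d, and at 38.5, 34.7 and 31.9 FPKM in sh-Ptbp1-7d. All libraries of 7 days were below all libraries of 3 days, 3.36-fold lower than sh-Ptbp1-3d (log2 fold change -1.75, standard error 0.11, limma adjusted p = 5.22e-07). EBP, a sterol isomerase, fell 2.81-fold to 19.3 ± 1.54 FPKM, DHCR7, the reductase of the last step to cholesterol, 2.14-fold to 42.9 ± 0.829 FPKM, and NSDHL, a sterol dehydrogenase, 2.07-fold to 16.1 ± 0.641 FPKM (SD, n = 3 each). HSD17B7, a sterol ketone reductase, fell 1.52-fold and MSMO1, the methylsterol oxidase, 1.5-fold. SQLE, squalene epoxidase, fell least of the 7, from 43.6, 44.1 and 39.7 FPKM at 3 days to 29.4, 33.4 and 29.5 FPKM at 7 days of knockdown. Its groups did not overlap, but the difference was only 1.38-fold (log2 fold change -0.46, standard error 0.08, limma adjusted p = 9.90e-04), whereas FDFT1 and LSS on either side of it in the pathway fell 4.88-fold and 3.36-fold.

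Of the 3 late enzymes that did not pass, CYP51A1 and TM7SF2 act one after the other in the pathway. CYP51A1, the lanosterol demethylase, was at 41.9, 44.4 and 34.9 FPKM in sh-Luci-3d, at 40.5, 39.9 and 41.0 FPKM in sh-Ptbp1-3d, and at 44.1, 45.2 and 42.8 FPKM in sh-Ptbp1-7d. Its 7-day libraries lay slightly above those of sh-Ptbp1-3d and overlapped those of sh-Luci-3d (log2 fold change 0.12, standard error 0.09, limma adjusted p = 0.291, 95% interval -0.08 to 0.32). TM7SF2, a sterol reductase that acts on the product of CYP51A1, was at 23.6, 27.7 and 36.1 FPKM in sh-Luci-3d, at 35.5, 36.5 and 35.1 FPKM in sh-Ptbp1-3d, and at 36.7, 36.4 and 36.1 FPKM in sh-Ptbp1-7d. The sh-Ptbp1 libraries of both days overlapped (log2 fold change 0.03, 95% interval -0.25 to 0.31), and the sign of this small difference turned with median-ratio scaling. SC5D was at 5.76, 6.04 and 6.15 FPKM at 3 days and 4.86, 4.08 and 4.78 FPKM at 7 days of knockdown (log2 fold change -0.38, standard error 0.18, limma adjusted p = 0.0912). The SC5D groups of sh-Ptbp1 did not overlap, but sh-Luci-3d replicate 3, at 4.38 FPKM, lay among the 7-day libraries. Without that library SC5D passed at the same log2 fold change (limma adjusted p = 0.00523), as the 25th gene to fall, and without sh-Ptbp1-3d replicate 3 as well it did not (limma adjusted p = 0.0194).

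Of the regulators, the genes of SREBP-1 and INSIG1 fell and that of SREBP-2 did not pass. SREBF1 lies on chromosome 17 from 17810399 to 17837002 (GRCh38). Its level stood at 320.2, 309 and 391 FPKM in sh-Luci-3d, at 404, 379 and 362 FPKM in sh-Ptbp1-3d, and at 232, 219.7 and 211 FPKM in sh-Ptbp1-7d. Each library of 7 days was below every library of 3 days, with a fall of 1.73-fold from sh-Ptbp1-3d (log2 fold change -0.79, standard error 0.10, limma adjusted p = 7.66e-05). SREBF2 lies on chromosome 22 from 41833079 to 41907308. Its level stood at 62.3, 65.5 and 67.9 FPKM in sh-Luci-3d, at 74.6, 72.7 and 71.1 FPKM in sh-Ptbp1-3d, and at 66.5, 66.4 and 64.4 FPKM in sh-Ptbp1-7d. Its 7-day libraries lay below those of sh-Ptbp1-3d but within the range of sh-Luci-3d, and the difference did not pass (log2 fold change -0.15, standard error 0.07, limma adjusted p = 0.0891, 95% interval -0.29 to 0.00). INSIG1, the retention protein that is itself an SREBP target, was at 119, 129 and 113 FPKM at 3 days and 75.3, 74.0 and 71.4 FPKM at 7 days of knockdown. The groups were well apart, 1.64-fold lower at 7 days (log2 fold change -0.71, standard error 0.08, limma adjusted p = 3.25e-05). STARD4, a carrier of cholesterol between membranes, was at 34.9 ± 2.24 FPKM at 3 days and 27.9 ± 3.65 FPKM at 7 days of knockdown (SD, n = 3) and did not pass (limma adjusted p = 0.0503).

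In the fatty acid arm all 8 genes fell, 7 of them past 2-fold. FASN lies on chromosome 17 from 82078333 to 82098332 (GRCh38). Its level stood at 618, 649 and 732 FPKM in sh-Luci-3d, at 816, 769 and 732 FPKM in sh-Ptbp1-3d, and at 114, 107 and 101 FPKM in sh-Ptbp1-7d. The libraries of 7 days lay far below any library of 3 days, at 13.9% of sh-Ptbp1-3d or 7.19-fold lower (log2 fold change -2.84, standard error 0.09, limma adjusted p = 5.66e-09), which placed FASN at rank 43 from the lowest log2 fold change among 15551 entries. SCD lies on chromosome 10 from 100347124 to 100364834. Its level stood at 1662, 1713 and 1397 FPKM in sh-Luci-3d, at 1493, 1579 and 1485 FPKM in sh-Ptbp1-3d, and at 459.8, 463 and 400.3 FPKM in sh-Ptbp1-7d. It remained the most abundant of the 30 genes at 7 days, although 3.44-fold lower than in sh-Ptbp1-3d (log2 fold change -1.79, standard error 0.10, limma adjusted p = 2.91e-07). ACSS2, which makes cytosolic acetyl-CoA from acetate, was at 23.6, 25.8 and 25.5 FPKM in sh-Luci-3d, at 26.6, 28.4 and 25.3 FPKM in sh-Ptbp1-3d, and at 8.87, 8.93 and 9.58 FPKM in sh-Ptbp1-7d. The groups of 3 and 7 days did not overlap, and the fall was 2.93-fold (log2 fold change -1.54, standard error 0.08, limma adjusted p = 1.39e-07).

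ACLY, which makes acetyl-CoA from citrate, fell 2.58-fold to 81.7 ± 7.32 FPKM, and ACACA, the acetyl-CoA carboxylase that provides malonyl-CoA to FASN, 2.60-fold to 16.9 ± 1.84 FPKM (SD, n = 3 each). The enzymes from citrate or acetate to palmitate (ACLY, ACSS2, ACACA, FASN) were therefore each lower. ELOVL6, the elongase of palmitate, fell 2.31-fold to 9.81 ± 0.211 FPKM. Of the desaturases of polyunsaturated fatty acids, FADS1 was at 76.6, 77.5 and 72.2 FPKM at 3 days and 30.8, 29.8 and 25.1 FPKM at 7 days of knockdown, and FADS2 at 46.2, 44.5 and 44.2 and 29.2, 30.4 and 31.9 FPKM. FADS1 was 2.64-fold lower (log2 fold change -1.40, standard error 0.09, limma adjusted p = 4.38e-07). FADS2, its neighbour on chromosome 11, was 1.47-fold lower and the only gene of the arm short of 2-fold (log2 fold change -0.56, standard error 0.07, limma adjusted p = 1.18e-04).

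**Figure D3:**
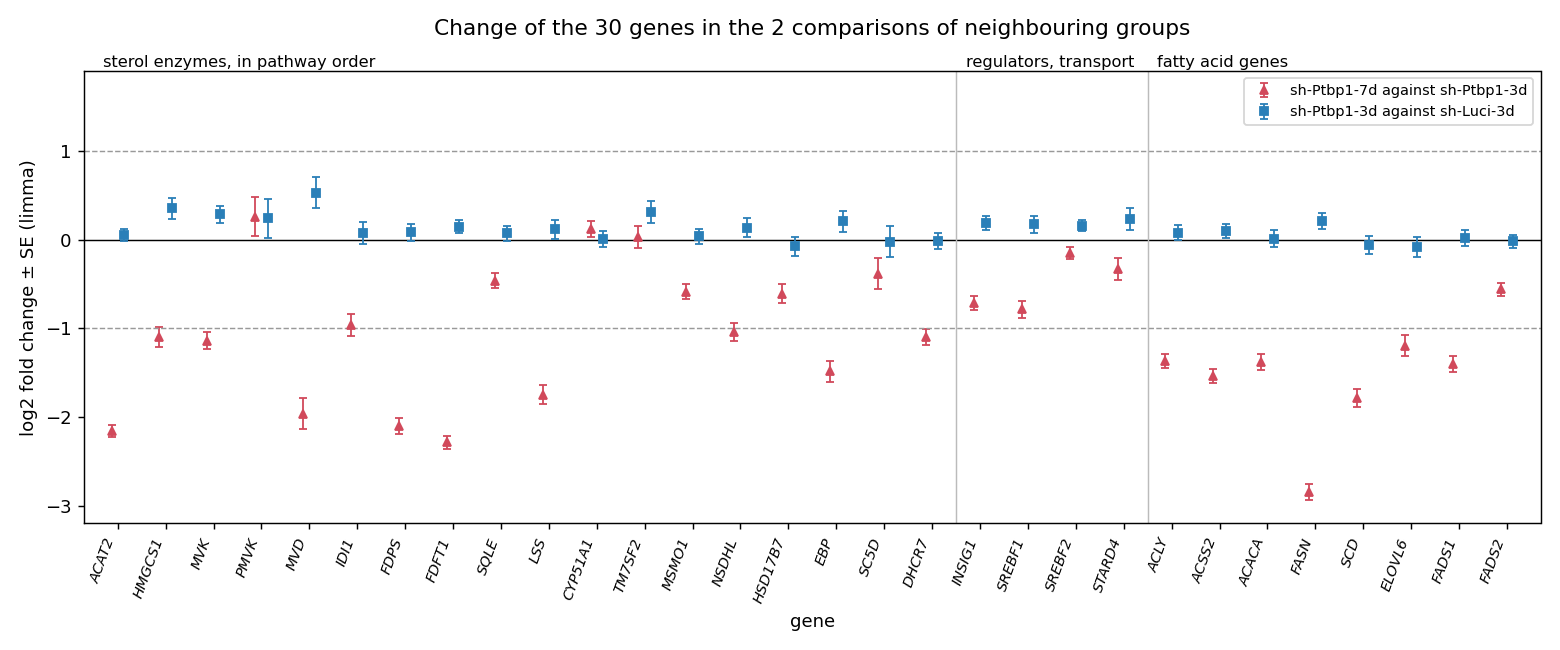
Log2 fold change with its standard error (limma, log2(FPKM + 0.1), 3 libraries per group) of the 30 genes. Red triangles are sh-Ptbp1-7d against sh-Ptbp1-3d and blue squares sh-Ptbp1-3d against sh-Luci-3d, which share the sh-Ptbp1-3d libraries, and dashed lines mark 2-fold. The red points reach -2.84 for FASN, while the blue points lie between -0.08 and 0.53.

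Against the 3-day control sh-Luci-3d, the sh-Ptbp1-7d cells were lower in both arms as well. With limma, 24 of the 30 genes were lower in the 7-day cells than in this control at an FDR below 0.01 (15% of all entries tested), and 14 of these were also more than 2-fold lower (5.68% of all entries). No gene was higher at this FDR. Medians of log2 fold change were -0.87 for the 18 sterol enzymes, -1.38 for the 8 fatty acid genes and 0.10 for all entries. FASN was again the gene with the lowest value (log2 fold change -2.63, standard error 0.09, limma adjusted p = 9.12e-09), followed by FDFT1 at -2.14 and ACAT2 at -2.10. HMGCS1, MVK and NSDHL, past 2-fold against sh-Ptbp1-3d, were at -0.74, -0.85 and -0.91 here. PMVK and TM7SF2 had positive values that did not pass, 0.50 (limma adjusted p = 0.0783) and 0.34 (limma adjusted p = 0.0437). Without sh-Luci-3d replicate 3 both passed in the higher direction, at 0.79 (standard error 0.14, limma adjusted p = 0.00123) and 0.51 (standard error 0.07, limma adjusted p = 2.97e-04), a call made for 22.7% of 15582 entries in that fit. In the same fit SC5D passed in the lower direction, at -0.64 (standard error 0.10, limma adjusted p = 5.35e-04), beside -0.41 (limma adjusted p = 0.0740) with all libraries. This made 25 genes lower, a call made for 17.1% of the entries in that fit. SQLE, counted among the 24 at -0.39 (limma adjusted p = 0.00285), did not pass without sh-Luci-3d replicate 1 or 2 or sh-Ptbp1-7d replicate 1 or 3 (limma adjusted p = 0.0104 to 0.0148), nor with libraries scaled to the same total (0.0114).

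At 3 days no lipid gene passed the test of knockdown against control (sh-Ptbp1-3d, sh-Luci-3d). The fit called few entries of any kind here, with 2 of 15551 past both thresholds (more than 2-fold, FDR below 0.05). The authors reported many more genes for this comparison at the same thresholds. A lipid gene that did not pass is therefore not shown to be unaffected by the knockdown at 3 days. With limma, 0 of the 30 genes passed an FDR below 0.05, whereas 5 of all 15551 entries did (0.0322%), and 7 of the 30 had an unadjusted p below 0.05, all higher, where 4.35% of all entries did so in that direction. The 7 were HMGCS1, MVK, MVD, TM7SF2, INSIG1, SREBF2 and FASN. This count of higher genes rested on single libraries, and was 2 without sh-Luci-3d replicate 1 or without sh-Ptbp1-3d replicate 1 or 2, 3 without sh-Luci-3d replicate 2, 4 without sh-Ptbp1-7d replicate 2, and 12 without sh-Luci-3d replicate 3. In that last fit 2 genes were lower at this unadjusted p, ELOVL6 at -0.23 and SC5D at -0.26. The count of higher genes was 4 with median-ratio or quantile scaling, and 3 with only the 2 groups fitted or no intensity trend. The share of all entries at this unadjusted p was not taken in these other fits. Without sh-Luci-3d replicate 3, 6.37% of all entries passed an FDR below 0.05 in either direction, beside 0.0322% with all libraries. In any amount 24 of the 30 genes were higher in sh-Ptbp1-3d, beside 52.4% of all entries. With quantile normalization 20 were, where the median log2 fold change of all entries was -0.01. The groups did not overlap for 5 genes, all higher (ACAT2, HMGCS1, MVK, FDFT1 and SREBF2), where 5.86% of all entries did not overlap in this direction. For HMGCS1 the difference was 0.35 on the log2 scale (95% interval 0.10 to 0.61, limma adjusted p = 0.584). SREBF2 differed by 0.16 (95% interval 0.01 to 0.31) and FASN by 0.22 (95% interval 0.02 to 0.41). The median over the 18 sterol enzymes was 0.10 and that over the 8 fatty acid genes 0.01, which turned to -0.03 with quantile normalization, beside 0.01 over all entries.

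These values of 3 days depended on the sh-Luci-3d replicate 3 library. MVD was at 37.8, 38.9 and 64.3 FPKM in the control and 73.2, 64.2 and 60.6 FPKM in the knockdown, so that replicate 3 of the control lay with the knockdown libraries. The same held for TM7SF2, at 23.6, 27.7 and 36.1 FPKM against 35.5, 36.5 and 35.1 FPKM, and for EBP, at 40.5, 45.2 and 56.3 FPKM against 56.9, 50.8 and 54.8 FPKM. For PMVK the control replicate 3 lay above all 3 knockdown libraries, and for HMGCS1 below the other control libraries. Over all 30 genes, the control replicates 1, 2 and 3 were at or above the lowest sh-Ptbp1-3d library for 12, 15 and 12 genes. Of all 15551 entries, they were so for 10826, 10502 and 10126. Without sh-Luci-3d replicate 3, 5 of the 30 genes were higher in sh-Ptbp1-3d at an FDR below 0.05, and 5.02% of 15582 entries were. MVD was then at 0.78 (standard error 0.09, limma adjusted p = 0.00454), TM7SF2 at 0.48 (standard error 0.07, limma adjusted p = 0.0104) and MVK at 0.37 (standard error 0.08, limma adjusted p = 0.0353). EBP was at 0.34 (standard error 0.09, limma adjusted p = 0.0489) and SREBF1 at 0.28 (standard error 0.07, limma adjusted p = 0.0470). With sh-Ptbp1-3d replicate 3 left out as well, a setting chosen after seeing the data, 4 genes were higher at this FDR (MVD, TM7SF2, MVK and SREBF1), beside 3.92% of 15544 entries. Against sh-Ptbp1-3d, 25 genes were lower at 7 days at an FDR below 0.01 without sh-Luci-3d replicate 3 (18.9% of all entries), and 24 without both libraries (17.3%).

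**Figure D4:**
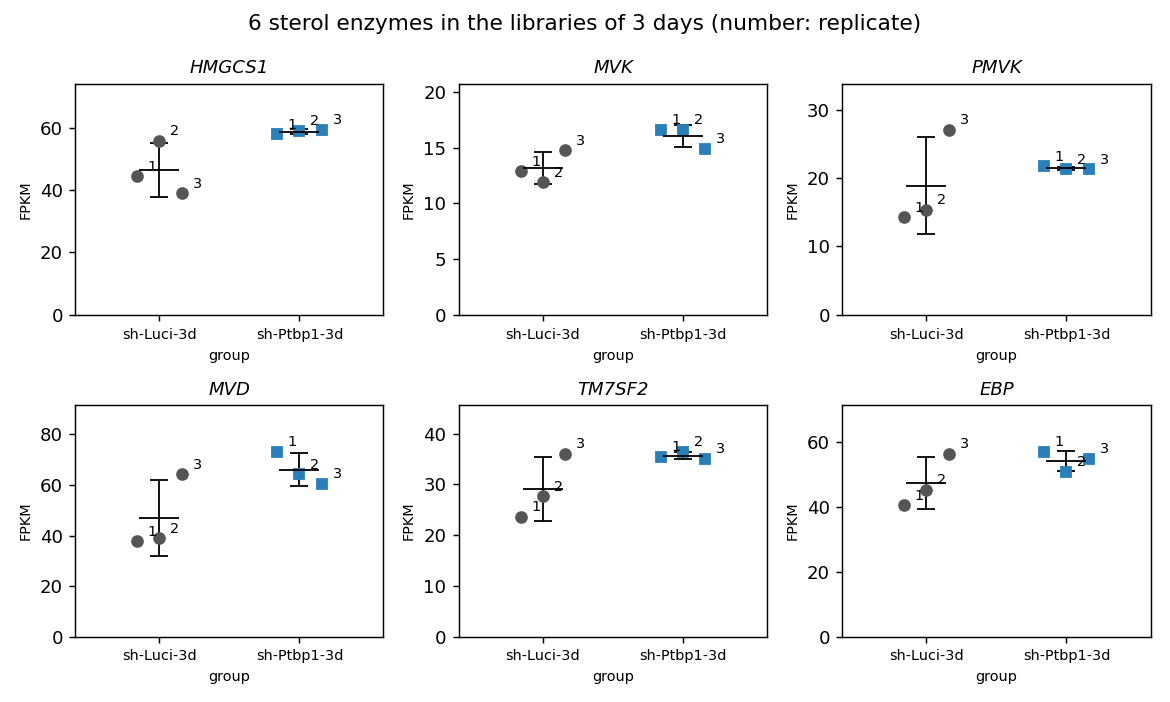
FPKM of 6 sterol enzymes in the libraries of 3 days, with 1 point per library, its replicate number beside it, and the mean ± SD (n = 3) as bars. Replicate 3 of sh-Luci-3d, at 64.3 FPKM for MVD, lies with the sh-Ptbp1-3d libraries for MVD, TM7SF2 and EBP, above them for PMVK and below the other control libraries for HMGCS1.

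The promoters of these genes were searched for the letters that SREBPs and their partners are known to bind, because the genes fell together. The RefSeq table (GRCh38.p14, 250 bases before to 50 after each start site) held 26 of the 30 genes, and not ACAT2, FDFT1, SQLE and FASN. A gene counted as matched if any of its listed windows held the letters on either strand, and 8 of the 26 had more than 1 window. The sterol regulatory element TCACCCCAC, and its looser form TCACNCCAC, which includes it, were found in 1 gene, SREBF2, and in 0.535% and 1.39% of 27305 genes. SREBF2 carried it from -133 to -125 and did not pass the test at 7 days. CCAAT, the letters bound by NF-Y, a known partner of SREBPs, stood in 21 of the 26 genes (80.8%), in 39.7% of all genes and in 42.1% of 15843 coding genes. GGGCGG, bound by SP1, stood in 25 of the 26 (96.2%) and in 64.3% of coding genes, and the E-box CACGTG in 3 of the 26 (11.5%) and in 10.9% of coding genes. CCAAT was found in 17 of the 20 genes that fell at 7 days and in 4 of the 6 that did not pass. A match is a description of letters and not of binding, and sites outside these windows were not searched. Only the letters given were searched, so an element that differs from them would be missed. The lack of a match therefore does not show that a gene lacks a sterol regulatory element.

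The 250 bases before the start site are shown for SREBF2, for FDPS and MVD, which had the lowest log2 fold changes among genes with 1 window, and for TM7SF2 and CYP51A1, which had the smallest changes. They were chosen after the values were seen. Start sites are those of RefSeq, and GENCODE v29 has an outermost start further upstream for all 5. For CYP51A1 that start, at 92134803, lies beyond the bases shown, which are thus all inside the GENCODE gene. For the other genes shown it lies within the bases shown, so the CYP51A1 window is not fully comparable. Capitals mark CCAAT on either strand (ATTGG on the other) and the sterol regulatory element.
SREBF2, chr22:41832855-41833104, plus strand: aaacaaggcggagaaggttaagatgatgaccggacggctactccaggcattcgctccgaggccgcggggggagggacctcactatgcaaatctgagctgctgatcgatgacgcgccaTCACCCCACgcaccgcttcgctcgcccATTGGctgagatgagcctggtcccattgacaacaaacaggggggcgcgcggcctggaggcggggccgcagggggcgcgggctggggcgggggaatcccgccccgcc
FDPS, chr1:155308616-155308865, plus strand: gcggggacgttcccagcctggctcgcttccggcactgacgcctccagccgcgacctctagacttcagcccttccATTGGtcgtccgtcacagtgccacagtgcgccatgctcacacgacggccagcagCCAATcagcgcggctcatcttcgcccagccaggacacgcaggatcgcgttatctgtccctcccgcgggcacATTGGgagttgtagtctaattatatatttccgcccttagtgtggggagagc
MVD, chr16:88663092-88663341, minus strand: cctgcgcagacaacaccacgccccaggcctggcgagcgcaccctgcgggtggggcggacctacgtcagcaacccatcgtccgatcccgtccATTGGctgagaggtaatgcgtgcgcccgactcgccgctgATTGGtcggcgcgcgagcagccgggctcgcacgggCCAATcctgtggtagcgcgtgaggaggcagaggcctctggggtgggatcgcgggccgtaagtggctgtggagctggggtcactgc
TM7SF2, chr11:65111622-65111871, plus strand: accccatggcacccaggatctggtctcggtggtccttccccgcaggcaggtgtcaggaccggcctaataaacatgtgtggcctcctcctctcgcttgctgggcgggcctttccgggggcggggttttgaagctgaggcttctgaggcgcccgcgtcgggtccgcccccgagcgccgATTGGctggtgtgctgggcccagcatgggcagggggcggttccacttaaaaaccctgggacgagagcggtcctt
CYP51A1, chr7:92134478-92134727, minus strand: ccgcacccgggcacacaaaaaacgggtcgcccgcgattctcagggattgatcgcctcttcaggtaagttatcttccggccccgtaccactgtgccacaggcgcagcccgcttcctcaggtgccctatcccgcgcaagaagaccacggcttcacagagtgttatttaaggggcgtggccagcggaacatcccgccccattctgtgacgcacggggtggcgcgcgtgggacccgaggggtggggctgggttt
The bases shown hold 3 CCAAT boxes each for FDPS and MVD, 1 each for SREBF2 and TM7SF2, and 0 for CYP51A1. Of the other genes, FADS1, ELOVL6 and SREBF1 (-1.40, -1.2 and -0.79 on the log2 scale), which fell, had no match in their windows. PMVK (0.26), which did not pass, had none either. LSS (-1.75) had 1 and MSMO1 (-0.59) had 4, whereas MVK and NSDHL (-1.14 and -1.04) each had more than MSMO1. These genes were named after their values were seen.

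Other genes of the pathway were followed from lists, each tested with limma between the 2 knockdown groups (7 against 3 days) at an FDR below 0.01, which 15.5% of all entries passed lower and 20.3% higher. Of 13 tested further genes of lipid synthesis, several of them known SREBP targets, 10 fell and 1 rose. LPIN1, a phosphatidate phosphatase, fell most, from 29.6, 30.4 and 28.9 FPKM to 11.3, 10.8 and 8.66 FPKM (log2 fold change -1.53, limma adjusted p = 2.00e-06), and PCYT2, of phosphatidylethanolamine synthesis, was at -1.16 (limma adjusted p = 4.32e-05). ACACB, the mitochondrial acetyl-CoA carboxylase, rose from 2.66, 2.30 and 2.07 FPKM to 4.31, 3.92 and 3.05 FPKM (log2 fold change 0.65, limma adjusted p = 0.00435), while ACACA fell. The rise of ACACB did not pass without sh-Ptbp1-3d replicate 2 or 3 or sh-Ptbp1-7d replicate 1 or 2 (limma adjusted p = 0.0165 to 0.0216), nor with quantile normalization (0.0120). Of 10 genes that process or retain SREBPs or degrade sterol enzymes, 4 rose and 0 fell. SCAP, the escort of SREBPs, rose from 21.3, 19.4 and 19.4 FPKM to 32.4, 35.0 and 36.0 FPKM (log2 fold change 0.78, limma adjusted p = 3.61e-05). INSIG2 rose from 2.88, 3.02 and 2.58 FPKM to 4.34, 4.52 and 5.23 FPKM (log2 fold change 0.71, limma adjusted p = 0.00113), while its paralog INSIG1 fell.

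In the isoprenoid branch, which uses farnesyl diphosphate for prenylation, dolichol and ubiquinone, 3 of 13 genes rose and 1 fell. FNTA, the shared alpha subunit of protein prenyltransferases, was at 0.57 (limma adjusted p = 3.99e-04), DHDDS, of dolichol synthesis, at 0.53 (limma adjusted p = 3.37e-04), and FNTB, the beta subunit of farnesyltransferase, at -0.51 (limma adjusted p = 5.32e-04). The median of the list was 0.08. Of 6 tested genes of sterol efflux and the sterol-sensing LXR receptors, 2 rose and 1 fell. MYLIP, an LXR target that degrades lipoprotein receptors, was at 1.08 (limma adjusted p = 1.83e-05), SMPDL3A at 0.91 (limma adjusted p = 0.00341) and LPCAT3 at -0.62 (limma adjusted p = 1.20e-04). SMPDL3A did not pass without sh-Ptbp1-3d replicate 3 or sh-Ptbp1-7d replicate 1 or 3 (limma adjusted p = 0.0130 to 0.0154). ABCA1, the main cholesterol exporter, was at 4.98, 4.87 and 4.62 FPKM at 3 days and 5.73, 5.64 and 4.02 FPKM at 7 days of knockdown and did not pass, and ABCG1 was listed at 0 in every library.

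Of 10 genes of sterol storage and traffic, 3 rose and 3 fell. OSBP, a sterol carrier to the Golgi, was at 1.02 (limma adjusted p = 2.01e-06) and the lipoprotein receptor VLDLR at 0.96 (limma adjusted p = 8.23e-05), whereas NPC2 and LIPA, which release cholesterol in lysosomes, were at -1.13 (limma adjusted p = 5.43e-07) and -1.13 (limma adjusted p = 1.83e-06). Of 17 tested genes of fatty acid oxidation, 5 fell and 0 rose, with a median of -0.09, beside -1.39 for the synthesis genes, and the lowest value -0.81 in ACADS (limma adjusted p = 0.00415), followed by -0.53 in ETFA (limma adjusted p = 6.46e-04). Among enzymes that make or clear oxysterols, CH25H was at 0.141, 0.168 and 0.155 FPKM in sh-Luci-3d, and at 0.218, 0.145 and 0.269 FPKM at 3 days and 0.171, 0.260 and 0.390 FPKM at 7 days of knockdown, near the low-value limit and overlapping. CYP27A1 was at 20.2 ± 1.19 and 20.8 ± 2.18 FPKM in the sh-Ptbp1 groups (SD, n = 3) and did not pass, CYP46A1 was at or below 0.200 FPKM throughout, and CYP7B1 was listed at 0. HSD3B7, which also serves bile acid synthesis, fell (log2 fold change -0.80, standard error 0.18, limma adjusted p = 0.00327), but did not pass without sh-Ptbp1-3d replicate 1 or sh-Ptbp1-7d replicate 1 or 2 (limma adjusted p = 0.0107 to 0.0164). Likewise ACADS did not pass with any 1 of the sh-Ptbp1-3d libraries or sh-Ptbp1-7d replicate 2 or 3 left out (limma adjusted p = 0.0118 to 0.0183).

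**Figure D5:**
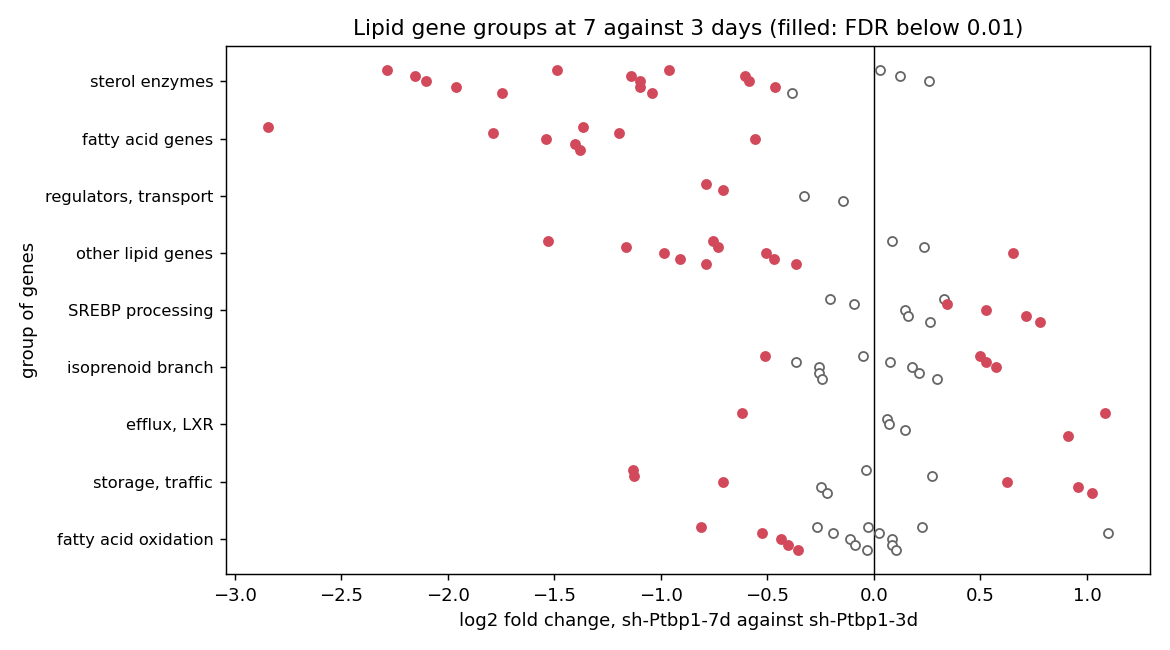
Log2 fold change of each gene from sh-Ptbp1-3d to sh-Ptbp1-7d by group of genes, with 1 circle per gene (vertical shifts within a row only separate the circles). Filled circles passed an FDR below 0.01 (limma) and open circles did not. All 8 fatty acid genes are filled and below 0, whereas the 4 filled genes of SREBP processing are above 0.

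Other groups of genes moved between the same libraries. All 20 listed genes of the G2/M phase fell from 3 to 7 days of knockdown (median log2 fold change -1.37, CDC20 at -1.98 and KIF20A at -1.88), and their summed level lay between 742 and 779.9 FPKM per library at 3 days and between 304 and 320.2 FPKM at 7 days. Of 18 listed interferon-response genes 17 rose, with a median of 2.25 (XAF1 at 6.10, OAS2 at 4.17) and sums of 3014 to 3455 FPKM at 3 days and of 20786 to 21679 FPKM at 7 days. Of 6 glioma line markers 2 fell and 1, S100B, rose, though not without sh-Ptbp1-7d replicate 1 (limma adjusted p = 0.0104) or with log2(FPKM + 0.01) (0.0393), and the log2 fold changes of VIM and CD44 were -1.91 and -1.41 (limma adjusted p = 9.79e-08 and 1.12e-06). Of 6 tested neuronal markers 1 rose and 1 fell, MAP2 at 0.94 (limma adjusted p = 5.80e-04) and TUBB3 at -1.42 (limma adjusted p = 6.91e-07). Summed levels of the 7 neuronal markers were 335 to 356 FPKM at 3 days of knockdown and 158 to 165 FPKM at 7 days. The part of cell cycle, interferon response, marker change or infection itself in the level of the lipid genes was not tested, and in bulk libraries fewer cells that express a gene and less RNA per cell cannot be told apart.

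Some values rest on genes that share sequence with others in GENCODE v29. CYP51A1 shares 79.4% of its exon bases with AC000120.2 on the same strand, which was listed at 0 in all libraries. ACAT2 shares 26.5% of its exon bases with SOD2 and 9.23% with TCP1 on the opposite strand, which were at -1.0 and -0.44 on the log2 scale from 3 to 7 days, and strand use in counting is not given in the sources used here. FADS1 and FADS2 share 490 exon bases on opposite strands. FDPS has 8 named pseudogenes, CYP51A1 3, HSD17B7 2, and SCD and FADS2 1 each, so reads of these genes could have been split in ways that cannot be seen here.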

How the data were processed

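The authors filtered Illumina HiSeq reads and compared them to the reference sequence (HISAT2 and GRCh38 per the submitters' processing notes), and deposited FPKM per gene and library, with 2363 loci assembled by StringTie among 22295 entries. The counting program, its strand setting and the versions are not given in the sources used here. The coordinates of the assembled loci, which the authors deposited as another kind of value, were used only to check that none overlaps an exon of the 30 genes. Libraries were grouped by their labels.

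Values were transformed to log2(FPKM + 0.1). The 15551 entries whose mean reached 0.1 FPKM were fitted by limma 3.58.1 in R 4.3.3 as a single model of the 3 groups over the 9 libraries, using an intensity trend and Benjamini-Hochberg adjustment over all entries tested. Fold changes of low genes are understated by the pseudocount. The thresholds, after the study's methods, were more than 2-fold and an FDR below 0.05 (sh-Ptbp1-3d against sh-Luci-3d) or 0.01 (comparisons with sh-Ptbp1-7d). The smallest two-sided p of an exact permutation test over 3 and 3 libraries is 0.1. The FPKM give no depth, so no counting error is attached. The model was also run on simulated data with independent, normal noise. Such data meet its assumptions, so this run cannot show how well it suits these FPKM. Figures were drawn with matplotlib (Python).

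The 30 genes and the other lists were chosen with earlier results of these data known. The genes named were the 30, PTBP1, the oxysterol enzymes, and from each other list up to 2 rises and 2 falls with the largest change among those past an FDR of 0.01 with a mean of at least 1 FPKM. ABCA1, ABCG1, GFAP, S100B, STMN2, the other markers at 0, and genes that overlap the 30 were named after their values were seen. Promoters were to be printed for genes with a sterol regulatory element that passed the FDR of 0.01, which none did. Alternatives were other pseudocounts, filters, scalings and fits, a replicate block, and leaving out libraries.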

Additional observations from a re-analysis of the deposited data

How the results depend on the processing

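In all, 23 alternatives were tried. From 3 to 7 days of knockdown, between 14 and 18 of the 30 genes were past both thresholds, all lower, in every setting that kept both thresholds, and 24 at the FDR alone. Against sh-Luci-3d the FDR alone gave 24 genes in place of 14. For the sterol enzymes, the median from 3 to 7 days (-1.07) was -1.02 with log2(FPKM + 1), -0.97 with libraries scaled to the same total and -1.16 with median-ratio scaling. Against sh-Luci-3d (-0.87) it was -0.79, -0.97 and, with quantile normalization, -0.93. At 3 days (sh-Ptbp1-3d, sh-Luci-3d) the median of the fatty acid genes turned from 0.015 to -0.026 with quantile normalization, and that of the sterol enzymes moved from 0.10 to 0.21 without sh-Luci-3d replicate 3 and sh-Ptbp1-3d replicate 3, a setting chosen after seeing the data. The causes were not tested. Leaving out each library in turn, the sterol median ranged from -1.10 to -1.03 between the knockdown groups and from 0.063 to 0.161 at 3 days. The fall of PTBP1 at 3 days (-0.85) missed the threshold when only the 2 groups were fitted (limma adjusted p = 0.0821), and its fall from 3 to 7 days missed it when sh-Ptbp1-3d replicate 1 or 2 or sh-Ptbp1-7d replicate 1 or 2 was left out, the log2 fold change ranging from -0.37 to -0.31 over all libraries left out. Nothing in the labels says that same-numbered libraries share more than a number, and whether they were paired is not known. The correlations of their deviations lay between -0.0317 and 0.0512, and those of libraries with different numbers between -0.0729 and 0.0608. With the replicate number as a block, 17 genes were past both thresholds from 3 to 7 days, 0 at 3 days and 14 at 7 days against sh-Luci-3d, and PTBP1 at 3 days, at -0.85, missed the threshold (limma adjusted p = 0.0583). The unknown depth limits the precision given for low genes such as CH25H.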
